A study of Saccharomyces cerevisiae with 3 samples.

Results

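Budding yeast cells of the 11th generation were set against cells of the 1st generation on 1 two-colour oligonucleotide array, 1 of 3 arrays in the series. Every feature for a yeast gene on that array was taken, 5792 of 5792, and the same features on the arrays of the 4th and 7th generation are quoted only for comparison. The strain was BY4742 in both groups. As background, it is haploid, of alpha mating type, and carries deletions at HIS3, LEU2, LYS2 and URA3, which both groups share. The older cells had been tagged with biotin, grown in YPD, a rich glucose medium, at 30 °C, and pulled out on biotin-binding beads after 11 generations. Their RNA was labelled with Cy3. RNA of 1st generation cells, whose way of collection is not stated in the sources used here, was labelled with Cy5. There was 1 array, no replicate and no dye swap, so no difference below was tested, no replicate error can be given, and dye and generation cannot be told apart. Whether older cells carried attached daughters is not stated.

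A budding yeast mother cell divides unequally. It gives off a smaller daughter at each division and can do so only a limited number of times, which is called its replicative lifespan, while the daughter starts life anew. As background from work on yeast, old mothers are known for changes in the vacuole and its acidity, in mitochondria, in iron handling, in ribosomal DNA and in histone supply, and iron demand is met through transcription factors that turn on uptake genes and a factor that degrades messages of iron-using proteins.

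Each spot has a raw signal in both channels. The median raw signal over features was 591 in the Cy3 channel of the 11th generation and 162 in the Cy5 channel of the 1st, so raw signals of the 2 channels cannot be divided directly. The ratio used here is log2 of Cy3 over Cy5 after background correction and a loess fit within each print block. The fit follows the mean log2 signal of the 2 channels. A value of 1 thus means 2-fold more transcript in 11th generation cells relative to features of similar mean signal in the block. A value of -1 means 2-fold less. Since 50 units were added to both channels, the fold of a dim feature is understated. A feature counted as measured when its raw signal passed a blank limit (mean plus 2 SD over 320 blank spots), 51.3 in Cy3 and 29.6 in Cy5, in at least 1 channel. That held for 5703 features, of which 5522 passed in both channels, 175 in Cy3 only and 6 in Cy5 only. Ratios measure a share of the labelled RNA, so fewer cells of a kind and less of an RNA per cell cannot be told apart.

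Of the 5703 measured features, 328 had at least 2-fold more signal in 11th generation cells (5.75%). Another 219 were at least 2-fold lower (3.84%), together 9.59%. Counts of list members past 2-fold given below are to be read beside these shares. On the 4th generation array, processed in the same way, 2.17% were higher and 2.49% lower, together 4.67%, and on the 7th generation array 2.32% and 2.03%, together 4.35%. The SD of the log2 ratio over features was 0.65 and the median 0.027, against SDs of 0.49 and 0.49 on the 4th and 7th generation arrays. Each generation had 1 array, and the part of technical spread in these SDs and shares was not tested. Among the 328 higher features, 68 were past 4-fold and 16 past 8-fold. Among the 219 lower ones, 25 were past 4-fold and 1, SAG1, past 8-fold. The features higher at the 11th generation had median log2 ratios of 0.68 and 0.76 on the 4th and 7th generation arrays, and those lower had -0.87 and -0.89. These 3 ratios are not independent, since each has 1st generation cells below the line. Each also has the older cells in Cy3 and the 1st generation in Cy5, so dye is shared as well. Of the 264 features past 2-fold on the 4th generation array, 88 were higher and 89 lower on both arrays and 0 went opposite ways. Of the 242 on the 7th generation array the counts were 102, 82 and 0. Just inside the 2-fold limit stood FRE5, YDR210W-B and EMI2 with log2 ratios of 1.00, and just outside it YCL019W at 0.998, ATG34 at 0.996 and MRPL10 at 0.995. YDR210W-B did not keep its sign, at -0.50 after median centring over the array and -1.03 in the authors' deposited table. On the low side OXP1 at -1.003, SWI3 at -1.004 and RPO21 at -1.006 were just inside, and SEC16, YOR296W and TKL1, all at -0.997, just outside.

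**Figure D1:**
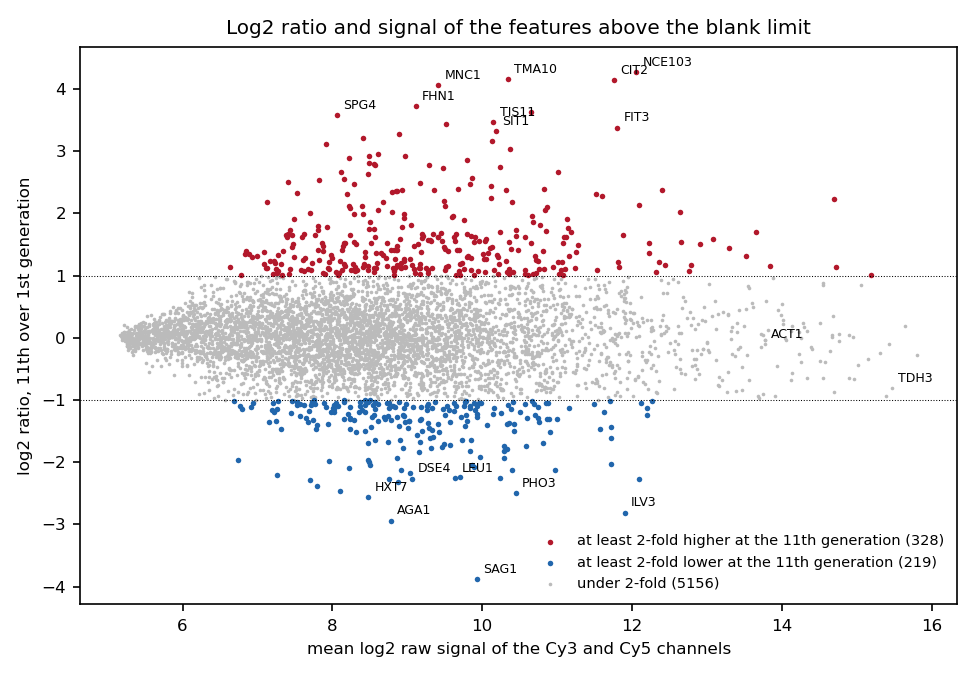
Each point is 1 measured feature. The x axis gives the mean of the log2 raw signals of the Cy3 and Cy5 channels, and the y axis the log2 ratio of 11th over 1st generation. Red points, 328, are at least 2-fold higher and blue points, 219, at least 2-fold lower at the 11th generation. The dotted lines mark 2-fold, and named points reach from NCE103 at 4.27 to SAG1 at -3.87.

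Position on the array moved with the ratio before the fit within blocks. After a loess fit over the whole array the median log2 ratio was 0.25 in even print blocks and -0.21 in odd ones, and even blocks held 310 of 419 features past 2-fold upward and 44 of 314 downward. After the fit within each block the medians were 0.033 and 0.020, and even and odd blocks held 151 and 177 of the higher features and 107 and 112 of the lower. The raw Cy5 signal of the 1st generation had a median of 126 in even blocks and 226 in odd blocks, whereas Cy3 had 564 and 638. ACT1, the actin gene and a common loading control, had 8 spots, with raw signals between 14495 and 17545 in the 11th generation channel and between 6753 and 27085 in the 1st generation channel. The ACT1 log2 ratio averaged -0.11 ± 0.62 (SD over 8 spots) and 0.098 ± 0.23 over 7 spots without the lowest, which lay at -1.54 in block 4. This spread over spots of 1 array is technical and is not a replicate error.

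**Figure D2:**
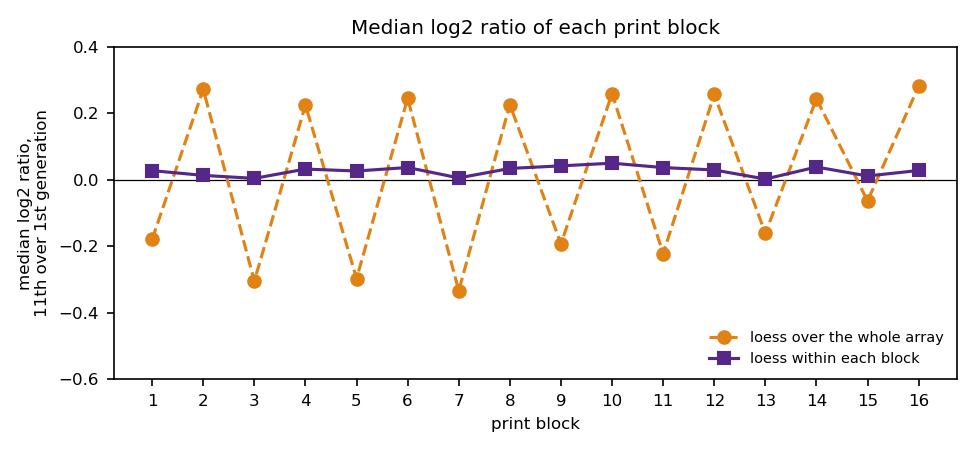
The x axis gives the 16 print blocks and the y axis the median log2 ratio of 11th over 1st generation over the features of a block. Circles are medians after a loess fit over the whole array, which lie between -0.33 and 0.28, and squares are medians after the fit within each block, all between 0.0024 and 0.050.

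The labels were checked against mating type and deletion markers. Of the deleted genes, LEU2 gave a raw signal of 43.0 at the 11th generation, against 24.5 at the 1st, neither above the blank limit. LYS2 gave 50.02 at the 11th against 32.8 at the 1st, above the limit in the 1st generation channel only, and URA3 gave raw signals of 56.3 at the 11th against 41.6 at the 1st, above the limit in both channels. HIS3 gave raw signals of 723 at the 11th against 356 at the 1st, a log2 ratio of -1.07, and where its probe lies relative to the deleted stretch is not known. The 7 genes specific to a cells, which an alpha strain keeps off, had raw signals summing to 1301 at the 11th generation and 384 at the 1st. All 7 were above the blank limit in both channels, and 0 of the 7 were past 2-fold. The a-factor gene MFA1 and the transporter gene STE6 were at 0.44 and 0.34, the protease gene BAR1 at 0.27, and the others, ASG7, AGA2, MFA2 and the alpha-factor receptor gene STE2, between -0.0077 and 0.091. Genes of meiosis and sporulation summed to 2605 at the 11th generation and 735 at the 1st over 15 genes. Of 14 measured, 1, the meiotic regulator NDT80, was higher (raw signals of 433 at the 11th against 58.1 at the 1st, log2 1.19) and 1, the inducer of meiosis IME1, was lower (raw signals of 131 at the 11th against 116 at the 1st, log2 -1.05).

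Genes specific to alpha cells were low in 11th generation cells. All 4 were at least 2-fold lower, with a median log2 ratio of -2.10, against -0.74 and -1.24 on the 4th and 7th generation arrays. Their raw signals summed to 5900 at the 11th generation and 12347 at the 1st. SAG1, the alpha-agglutinin that binds mating partners, had a raw signal of 486 at the 11th generation, against 1952 at the 1st, and was 14.7-fold lower, the lowest of all features. The alpha-factor genes MF(ALPHA)2 and MF(ALPHA)1 had raw signals of 2663 at the 11th against 7231 at the 1st and raw signals of 1963 at the 11th against 1885 at the 1st, with log2 ratios of -2.27 and -1.52. The 1st generation signal of MF(ALPHA)1 itself differed 2.02-fold between the 3 arrays. STE3, the receptor for a-factor, had raw signals of 788 at the 11th against 1279.8 at the 1st and a log2 ratio of -1.92.

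Of 10 measured pheromone-induced genes, 3 were lower and 1 was higher, with a median of -0.67 (-1.30 to -0.66). Where another normalization, or the members in odd or in even print blocks alone, moved the median of a list by over 1.5 times, its lowest and highest values under these alternatives stand in brackets after it. AGA1, which anchors the a-agglutinin to the wall, had raw signals of 304 at the 11th generation, against 636 at the 1st, and was 7.66-fold lower. FUS1 and PRM1, which act in cell fusion, had log2 ratios of -2.39 and -1.08, while PRM4 was at 1.57 with raw signals of 1823 at the 11th against 211 at the 1st. Of the 16 genes of the pheromone signalling pathway, 4 were lower: SST2, which switches the receptor's G protein off, at -1.83, the cell cycle arrest factor FAR1 at -1.34, the transcription factor STE12 at -1.24 and the G protein subunit GPA1 at -1.09. The kinases STE11, STE7, FUS3 and KSS1 lay between -0.65 and 0.36, inside 2-fold.

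Genes known to be turned on in newborn daughter cells were also low. Of 11 measured, 7 were at least 2-fold lower and 11 were below 0, with a median of -1.28 (-2.26 to -0.80), against -0.67 and -0.72 on the 4th and 7th generation arrays. The summed raw signal was 6406 at the 11th generation and 6094 at the 1st, with single genes between 152 and 2136 in Cy3 and between 63.3 and 1745 in Cy5. The glucanase gene DSE4 had raw signals of 377 at the 11th against 752 at the 1st and a log2 ratio of -2.27, and the cell separation gene EGT2 had raw signals of 842 at the 11th against 1745 at the 1st and a log2 ratio of -2.26. DSE3, PRY3, DSE2 and NIS1 lay between -1.49 and -1.28, and ASH1, which represses HO in daughters, at -1.03. The chitinase gene CTS1 was closest to 0 at -0.50. None of the 11 was at the blank level in either channel. HO, the endonuclease of mating type switching, which mothers transcribe and daughters do not, had raw signals of 153 at the 11th against 285 at the 1st and a log2 ratio of -2.28, also lower. The part that a different share of newborn daughters has in these or other values was not tested.

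The highest features came from several pathways. NCE103, the carbonic anhydrase of yeast, had a raw signal of 32477 at the 11th generation, against 558 at the 1st, a ratio of 19.2-fold. It was the largest ratio with the background correction and loess within print blocks used here. TMA10 exceeded it with median centring over the array, at a log2 ratio of 4.67 against 4.43, and within blocks, at 4.37 against 4.15. Under the same loess, TMA10 also exceeded it with plain subtraction of the blank mean, at 4.57 against 4.38. It did so with normexp at offset 0, at 4.53 against 4.38, and without background correction, at 4.36 against 4.33. With loess over the array NCE103 stayed above TMA10, at 4.75 against 4.55. SPG4 exceeded NCE103 in the authors' deposited table, at 5.39 against 4.04, and with plain subtraction and offset 0, at 5.63 and 5.25. Others of the 15 highest did so too. In the deposited table TMA10, GID10, MNC1 and FHN1 were at 4.66, 4.62, 4.20 and 4.19. With plain subtraction GID10, MNC1, FHN1 and BOP2 were at 4.92, 4.71, 4.60 and 4.39. At offset 0 GID10, MNC1 and FHN1 also exceeded NCE103. MNC1 exceeded it with median centring within blocks, at 4.27, and without background correction, at 4.35. The Cy3 signal of NCE103 was 16297, 19433 and 32477 at the 4th, 7th and 11th generation. Its Cy5 signal was 698, 638 and 558 on the same arrays. With each array's Cy5 signals divided by their median, its 1st generation signals lay within 1.15-fold of each other. The Cy3 signal was highest in cells of the 11th generation. TMA10, a ribosome-associated protein made under stress, was 17.9-fold higher (raw signals of 11488 at the 11th against 147 at the 1st), and MNC1 16.7-fold (raw signals of 4845 at the 11th against 95.5 at the 1st). FHN1, a membrane protein of eisosomes, had raw signals of 3792 at the 11th against 80.5 at the 1st and was 13.2-fold higher. The uncharacterised YBR085C-A had raw signals of 10808 at the 11th against 241 at the 1st, DPI8 had raw signals of 4532 at the 11th against 118 at the 1st and BOP2 had raw signals of 2001 at the 11th against 57.7 at the 1st, with log2 ratios of 3.63, 3.43 and 3.21. PDH1, a putative enzyme of propionate breakdown, was 9.64-fold higher (raw signals of 2689 at the 11th against 83.0 at the 1st), and GID10, a substrate receptor of the GID ubiquitin ligase, 8.64-fold (raw signals of 1434 at the 11th against 40.4 at the 1st). SPG4, a stationary phase gene, had raw signals of 1904 at the 11th against 37.2 at the 1st, so its 1st generation signal lay just above the blank limit, and a ratio of 11.9-fold. The other members of the top 15, CIT2 and the iron genes TIS11, FIT3, SIT1 and FIT2, are given with their pathways.

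**Figure D3:**
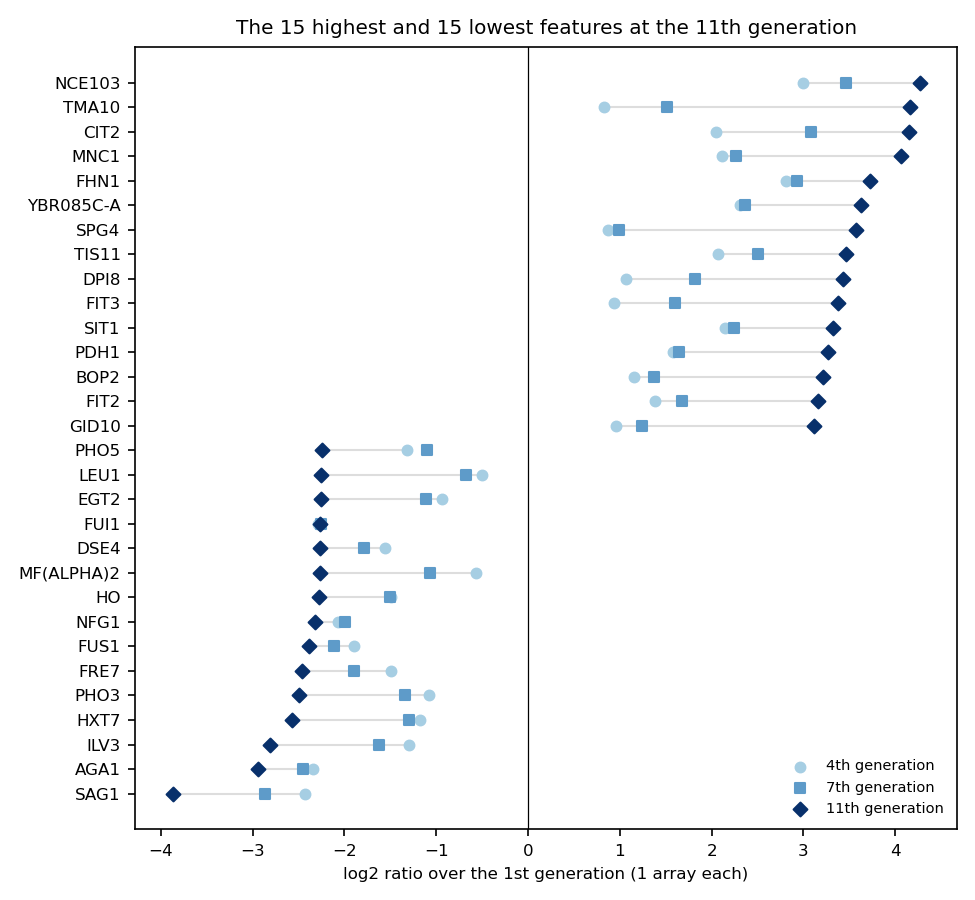
The 15 highest and 15 lowest features at the 11th generation, chosen for that ratio, run down the y axis. The x axis gives the log2 ratio over the 1st generation on the array of the 4th (circles), 7th (squares) and 11th generation (diamonds), 1 array each. Among these features the 4th and 11th generation values lie farthest apart for TMA10, with 0.83, 1.51 and 4.16 at the 4th, 7th and 11th generation, and closest for FUI1, with -2.29, -2.25 and -2.26.

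Iron uptake through siderophores, small iron chelators, was high at the transcript level. All 9 measured genes were above 0 and 7 were at least 2-fold higher, with a median of 1.66 (1.44 to 2.65), against 0.94 and 0.81 on the 4th and 7th generation arrays. FIT3, a wall mannoprotein that holds siderophores, had a raw signal of 15407 at the 11th generation, against 829.99 at the 1st, and was 10.4-fold higher. Its relatives FIT2 and FIT1 had raw signals of 6943 at the 11th against 182 at the 1st and raw signals of 618 at the 11th against 50.6 at the 1st, with log2 ratios of 3.16 and 1.66. Among the transporters, SIT1 had raw signals of 7516 at the 11th against 179 at the 1st and a log2 ratio of 3.32, ARN2 had raw signals of 4043 at the 11th against 214 at the 1st and a log2 ratio of 2.57, and ARN1, with Cy5 signals 3.61-fold apart between arrays, was at 1.06. ENB1 at 0.99 was just under 2-fold. The siderophore reductase FRE3 was at 1.51 and FRE2 at 0.33.

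Of 12 genes of the reductive route, which takes up free iron, 5 were higher and 0 lower, with a median of 0.85 (0.67 and 0.49 on the 4th and 7th generation arrays). The plasma membrane oxidase FET3 had raw signals of 6540.1 at the 11th against 798 at the 1st and a log2 ratio of 1.31, while its partner permease FTR1 had raw signals of 1930.2 at the 11th against 327 at the 1st and a log2 ratio of 0.42. The vacuolar pair FTH1 and FET5, which brings stored iron back, was at 1.64 and 1.31, and the low-affinity transporter FET4 at 1.42. FRE1, the main cell surface reductase, was at -0.44. FRE7, a reductase homologue controlled by copper, was among the 15 lowest at -2.46 (raw signals of 226 at the 11th against 335 at the 1st), though between the arrays its Cy5 signal differed 3.80-fold.

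Genes that save iron were high, 3 of 4. TIS11, which binds and degrades messages of iron-using proteins, had raw signals of 6709.9 at the 11th against 192 at the 1st and was 11.0-fold higher. HMX1, a heme oxygenase that frees iron from heme, had raw signals of 1883 at the 11th against 76.2 at the 1st and a log2 ratio of 2.78. The biotin importer VHT1 had raw signals of 944 at the 11th against 53.6 at the 1st and a log2 ratio of 1.80, while CTH1, the close relative of TIS11, stayed at 0.054. Of the biotin synthesis genes, BIO2, an iron-sulfur enzyme, was at 1.12, and BIO3, BIO4 and BIO5 lay between -0.50 and 0.40. In iron-sulfur cluster assembly 1 of 13 genes, the scaffold ISU1, was higher (raw signals of 4781 at the 11th against 635 at the 1st, log2 1.81), and the others, with its twin ISU2 at -0.52, lay between -0.57 and 0.41. Of 8 heme synthesis genes 0 passed 2-fold in either direction, and they ran from HEM13 at -0.35 to HEM14 at 0.65.

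Messages of iron-containing proteins were then listed by cofactor, a grouping written after their values had been seen. Of 20 genes for iron-sulfur enzymes 6 were lower and 1, BIO2, was higher, 30.0% and 5.0% beside 3.84% and 5.75% over all features. Because of how the groups were written, their counts describe only the genes listed and not iron-containing proteins in general. Among the lower ones were ILV3 and LEU1 of branched-chain amino acid synthesis at -2.81 and -2.25, glutamate synthase GLT1 at -1.64, the diphthamide enzyme DPH2 at -1.34 and the ribosome recycling factor RLI1 at -1.15. On the 4th generation array these 5 were between -1.29 and 0.22. Aconitase ACO1 was at -0.097, succinate dehydrogenase subunit SDH2 at -0.23 and the Rieske protein RIP1 at -0.55. Of 13 heme proteins 11 were below 0 and 4 were at least 2-fold lower: CYC1, the main cytochrome c, at -2.21, the sterol desaturase ERG5 at -1.68, cytochrome c peroxidase CCP1 at -1.60 and COX1 at -1.05. Of 9 genes listed for di-iron enzymes or their subunits 3 were higher. These were the fatty acid desaturase OLE1 at 1.65, the ribonucleotide reductase subunit RNR4 at 1.44 and the coenzyme Q enzyme CAT5 at 1.02. RNR4 is counted as a subunit of such an enzyme, not as a protein that itself binds iron. For RNR4 the ratio in the authors' deposited table was -0.18, and the median of the di-iron enzymes was -0.14 there, so neither kept its sign under the authors' scaling.

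Of 7 copper genes 1 was past 2-fold, the metallothionein activator CUP2 at 1.36, and the copper importers CTR1 and CTR3 were at 0.23 and -0.56. In the zinc regulon 1 of 9, the membrane protein IZH2, was higher at 1.90 (raw signals of 2969 at the 11th against 252 at the 1st). The zinc importer ZRT1 was at -0.66, against 1.07 and 0.47 on the 4th and 7th generation arrays.

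Cell wall mannoproteins known from low oxygen and cold were high. Of 20 seripauperins, small serine-rich wall proteins, 16 were at least 2-fold higher and 19 were above 0, with a median of 1.59, against 0.30 and 0.40 on the 4th and 7th generation arrays. PAU9 had raw signals of 3851 at the 11th against 132 at the 1st and a log2 ratio of 2.73, PAU13 had raw signals of 1823 at the 11th against 117 at the 1st and a log2 ratio of 2.35, and PAU5 had raw signals of 1473 at the 11th against 79.1 at the 1st and a log2 ratio of 1.99, with 0.074 and 0.15 on the earlier arrays. PAU21, with raw signals of 52.5 at the 11th against 27.9 at the 1st, was above the blank limit in the 11th generation channel only, so no ratio is given for it. The seripauperins are near-identical copies, and how far their probes share target is not known, so the 20 features are not 20 separate measurements. Of the 6 mannoproteins of the TIR and DAN families 4 were higher. TIR4, TIR1 and TIR3 had raw signals of 2011 at the 11th against 63.0 at the 1st, raw signals of 3186 at the 11th against 135 at the 1st and raw signals of 3229 at the 11th against 163 at the 1st, with log2 ratios of 2.63, 2.37 and 2.11. DAN1 had 1045 at the 11th generation, against 27.4 at the 1st, which is not above the blanks, so it was at least 5.64-fold higher. TIR2 and DAN4 were at 0.26 and 0.12.

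Other genes known from low oxygen were mixed: 3 of 12 were higher and 1 lower. ANB1, the low-oxygen form of elongation factor 5A, had 5525 at the 11th generation, against 328 at the 1st, and was 4.53-fold higher. UPC2, a sterol-sensing activator of the TIR and DAN genes, was at 1.753 (raw signals of 1162 at the 11th against 111 at the 1st), and the sterol importer AUS1 at 0.98. The heme-dependent repressor ROX1 was at -0.37, the coproporphyrinogen oxidase HEM13 at -0.35, the cytochrome c isoform CYC7 at -0.21 and SUT1 at -1.05. In ergosterol synthesis 1 of 28, UPC2 itself, was higher and 2, ERG5 and the reductase HMG1 at -1.08, were lower, with a median of -0.096 (-0.57 to 0.20). Seripauperin genes lie next to chromosome ends, so position was examined. Among the 5 genes nearest each end, 18 of 108 measured features were higher and 1 was lower, and 7 of 95 without the seripauperin, TIR and DAN genes. Among the 6th to 10th genes 22 of 143 were higher and 2 lower, and 20 of 141 without those families. More than 40 genes from an end, 233 of 4452 were higher and 160 lower, beside 5.75% and 3.84% over all features. Gene order is that of the RefSeq R64 annotation.

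The retrograde response, by which yeast answers failing mitochondria and makes glutamate precursors, had 6 of 11 genes higher and 0 lower, with a median of 1.22 (0.26 to 1.73), against 0.49 and 0.45 on the 4th and 7th generation arrays. The median was 0.26 over the 6 members in even print blocks and 1.73 over the 5 in odd ones. CIT2, the peroxisomal citrate synthase and hallmark of this response, had a raw signal of 20960.03 at the 11th generation, against 569.6 at the 1st, 17.7-fold higher. Its Cy3 signal was 6030, 9899 and 20960 at the 4th, 7th and 11th generation. IDH1 and IDH2, the subunits of isocitrate dehydrogenase, had raw signals of 9717 at the 11th against 983 at the 1st and raw signals of 7779 at the 11th against 1668 at the 1st, with log2 ratios of 2.28 and 1.22, against 0.48 and 0.013 on the 4th generation array. Mitochondrial citrate synthase CIT1 was at 1.61, pyruvate carboxylase PYC1 at 1.73 and the D-lactate dehydrogenase DLD3 at 1.67. ACO1, which stands between citrate and isocitrate, was at -0.097, and the regulators RTG1, RTG2, RTG3 and MKS1 lay between -0.29 and 0.36. Of 17 TCA cycle genes 3 were higher, CIT1, IDH1 and IDH2, and 1 was lower.

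Of 15 genes of the glyoxylate cycle and gluconeogenesis 2 were higher. PCK1, which commits carbon to sugar synthesis, had 1788 at the 11th generation, against 111 at the 1st, a log2 ratio of 2.34, against 0.23 and 0.49 on the 4th and 7th generation arrays. ACS1, an acetyl-CoA synthetase, was at 1.10, and FBP1, ICL1 and JEN1 lay between 0.48 and 0.79. Among 14 measured hexose transporters 2 were higher and 2 lower. HXT5, the transporter of slow-growing cells, had raw signals of 409.8 at the 11th against 45.4 at the 1st and a log2 ratio of 1.38, and HXT2 had raw signals of 21692 at the 11th against 9902 at the 1st and a log2 ratio of 1.15, but -0.76 in the authors' deposited table and -0.23 after median centring over the array. HXT7 and HXT4 were at -2.57 and -2.12, with raw signals of 238 at the 11th against 536 at the 1st and raw signals of 356 at the 11th against 653 at the 1st. The 1st generation signal of HXT7 differed 3.40-fold between arrays, and HXT7 is nearly identical to HXT6, whose feature gave raw signals of 66.0 at the 11th against 31.5 at the 1st. HXT3 was at 0.49. HXT1 was at -0.35, against -1.58 and -1.19 on the earlier arrays.

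Of 7 trehalose genes 0 were past 2-fold, with TPS2 highest at 0.83. In glycogen metabolism 1 of 13, UGP1, was lower at -1.14, and GLC3 was at 0.94. In glycerol metabolism 1 of 8, the osmotic stress enzyme GPD1, was higher at 1.22. In glycolysis and fermentation 5 of 26 genes were higher and 0 lower, and their median of 0.20 (-0.58 to 0.42) turned to -0.58 in the authors' deposited table, so no direction is given for the pathway. The 5 higher genes, TDH1, PDC6, ADH5, GPM2 and GLK1, all belong to sets of isoenzymes.

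Isoenzymes of the same reaction were therefore set side by side, in 26 pairs written after the values had been seen. The form listed first is, as background, the one known from stress, low oxygen, slow growth or poor nutrients, or the minor one. The ratio of that form exceeded that of its partner in 25 of the 26 pairs, by at least 2-fold in 18, and was at least 2-fold below it in 1. The 25 include near ties, AAC3 and PET9 at -0.49 and -0.51, and PYK2 and CDC19 at 0.11 and 0.014. With loess over the array PYK2 was below CDC19, by a log2 difference of -0.011. In the authors' deposited table GPD1 was below GPD2, by -0.35. Since pairs were chosen with the values in view, these counts describe only the pairs listed and not isoenzymes in general. TDH1 had raw signals of 2296 at the 11th against 95.3 at the 1st and a log2 ratio of 2.36, while TDH3, the main glyceraldehyde-3-phosphate dehydrogenase, had 31370 at the 11th generation and the scanner maximum at the 1st, so its log2 ratio was at most -0.81. PDC6 and PDC1 were at 2.18 and 0.19, ADH5 and ADH1 at 1.67 and 0.055, GPM2 and GPM1 at 1.41 and 0.16. The transaldolase pair NQM1 and TAL1 was at 2.89 and 0.55, with raw signals of 2137 at the 11th against 41.5 at the 1st for NQM1. The elongation factor pairs ANB1 and HYP2, and HEF3 and YEF3, were at 2.18 and -0.65, and at 1.46 and -0.45. BAT2 and BAT1, the cytosolic and mitochondrial branched-chain aminotransferases, were at 0.69 and -1.43, and the peroxiredoxins TSA2 and TSA1 at 1.27 and -0.71. How far a probe also binds the partner's transcript was not tested.

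**Figure D4:**
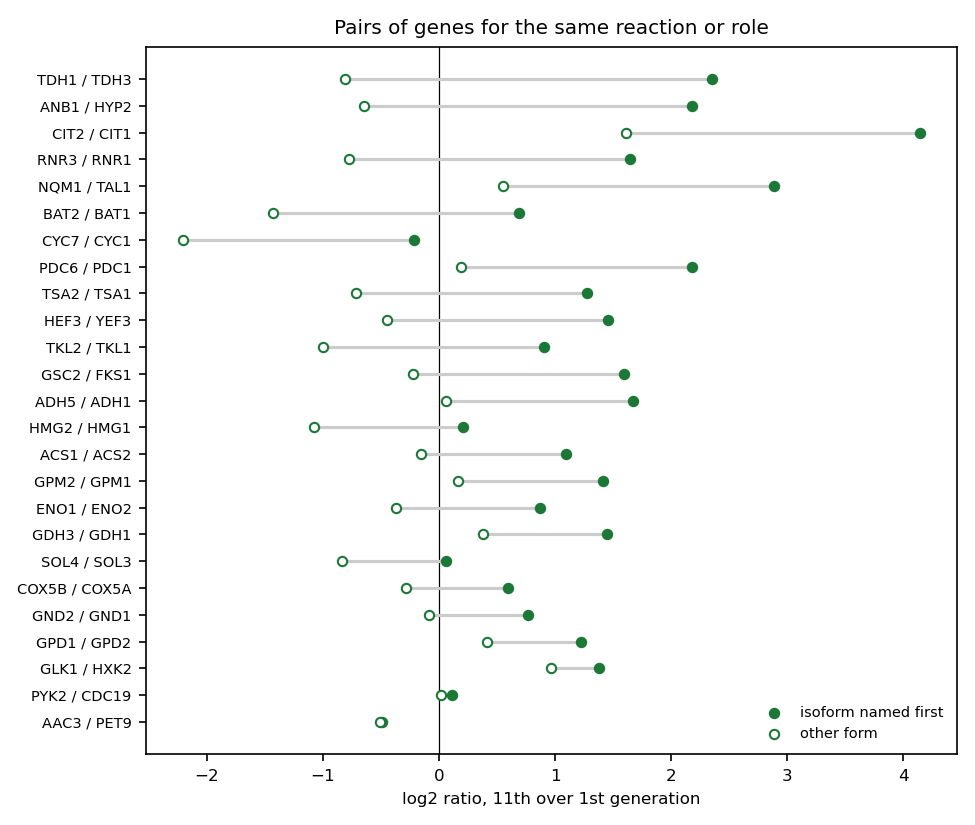
Each row is a pair of genes for the same reaction or role, chosen after the values had been seen. The x axis gives the log2 ratio of 11th over 1st generation, filled circles the form listed first and open circles the other form. The filled circle lies to the right in the 25 pairs drawn, and the 1 pair of the 26 with the opposite order is not drawn. CIT2 lies at 4.15 and CIT1 at 1.61, and AAC3 and PET9 nearly coincide at -0.49 and -0.51.

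Of 11 genes of complex III and cytochrome c 2 were at least 2-fold lower and 9 were below 0, with a median of -0.51 (-0.98 to 0.11). The 2 members in even print blocks had a median of 0.11, of the opposite sign. CYC1 had 106 at the 11th generation, against 223 at the 1st, and QCR2, a core subunit, had raw signals of 735 at the 11th against 791 at the 1st and a log2 ratio of -1.35. Cytochrome c1 CYT1, RIP1 and COR1 lay between -0.78 and -0.47. Among nuclear subunits of cytochrome c oxidase 1 of 9, COX4, was lower at -1.13. The ATP synthase subunits had a median of 0.34 (0.25 to 0.63), with 1 of 16, the inhibitor-stabilising STF1 at 1.09, past 2-fold, and ATP2, a catalytic subunit, at -0.56. Of the genes on mitochondrial DNA 7 were measured, and COX1 (raw signals of 1125 at the 11th against 558 at the 1st) was lower at -1.05, while COB was at 0.45. The coenzyme Q genes of the list lay between -0.18 and 0.51.

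Of 54 mitochondrial ribosomal protein genes 45 were above 0 and 5 were at least 2-fold higher, 9.26% beside 5.75% over all features, and their median was 0.56, against 0.076 and 0.16 on the 4th and 7th generation arrays. The highest were MRPL36 at 1.62, with Cy5 signals 2.14-fold apart between arrays, MRPL20 at 1.28 and RSM26 at 1.10. Of 23 genes of the import machinery 1, the chaperone TIM10, was higher at 1.21, but it read -0.063 in the authors' deposited table. Cytosolic ribosomal proteins had a median of -0.18 (-1.12 to -0.089), with 0 of 137 higher and 4 lower. That median was -0.69 with median centring within blocks, -0.62 with median centring over the array and -1.12 in the authors' deposited table. The lower ones were RPL22B at -1.94, RPS9A at -1.39, RPL8A at -1.24 and RPS0B at -1.13, and many ribosomal proteins have near-identical gene copies that a probe may not separate.

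The cytosolic aminoacyl-tRNA synthetases, which charge tRNAs with amino acids, were all below 0. Of 20, 2 were past 2-fold, methionyl-tRNA synthetase MES1 at -1.16 (raw signals of 822 at the 11th against 463 at the 1st) and YHR020W at -1.01. The median was -0.56 (-1.13 to -0.36), against -0.18 and -0.30 on the 4th and 7th generation arrays, and YDR341C was closest to 0 at -0.21. Ribosome biogenesis genes had 6 of 111 higher and 3 lower with a median of 0.055 (-0.12 to 0.29). These shares, 5.41% and 2.7%, were near the 5.75% and 3.84% over all features. The helicase HAS1 was at -2.13, with a 1st generation signal that differed 5.51-fold between arrays, NOP10 at 1.63 and NOP53 at 1.53. None of the 27 subunits of RNA polymerases I and III passed 2-fold in either direction, and the largest RNA polymerase I subunit RPA190 was lowest at -0.87. Among 37 translation factors 3 were higher, ANB1, HEF3 and the start codon factor SUI1 at 1.17, and 1, TEF4, was lower at -1.503.

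Stress and stationary phase genes were high in number. Of 27 general stress targets 9 were higher and 0 lower, with 25 above 0 and a median of 0.73 (0.48 to 1.09), against 0.22 and 0.18 on the 4th and 7th generation arrays. TMA10 headed them. HSP12, a small membrane-stabilising protein, had 3082 at the 11th generation, against 128 at the 1st, a log2 ratio of 2.77, and the wall protein SPI1 had raw signals of 3009 at the 11th against 225 at the 1st and a log2 ratio of 2.39. DDR2 had raw signals of 753 at the 11th against 38.2 at the 1st and a log2 ratio of 1.66. All 15 stationary phase genes were above 0 and 6 were higher, among them RTC3 at 2.95, the mitochondrial pyruvate carrier subunit MPC3 at 2.48, STF2 at 2.38 and MSC1 at 1.48. Of 31 genes of the Hsp70 and Hsp90 chaperone systems 0 were higher, and 1, the Hsp90 activator AHA1, was lower at -1.26. HSP104, the disaggregase, was at 0.39 and HSP42 at 0.75, while CUR1, a factor that sends misfolded proteins to the nucleus, was at 1.87. HSP26 was at 0.75, against -2.06 and -0.93 on the 4th and 7th generation arrays. In the endoplasmic reticulum 1 of 14 folding genes, the regulator HAC1, was higher at 1.53 (raw signals of 13002 at the 11th against 1784 at the 1st), with the chaperone KAR2 at -0.00024 and the disulfide isomerase PDI1 at -0.30.

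Genes of protein breakdown were higher in part. The shares past 2-fold upward were 45.5% for vacuolar proteases and inhibitors and 11.1% for autophagy genes. They were 10.5% for the proteasome regulatory particle and 7.14% for its core, beside 5.75% over all features. Among 11 vacuolar proteases and their inhibitors 5 were higher and 0 lower, with a median of 0.71 (-0.051 to 1.44). Protease B, PRB1, had 2959 at the 11th generation, against 112 at the 1st, a log2 ratio of 2.49, and protease A, PEP4, had raw signals of 6125 at the 11th against 429 at the 1st and a log2 ratio of 1.96. Their inhibitors were high as well: PAI3, which blocks protease A, was at 1.61, PBI2, which blocks protease B, at 1.43, and TFS1, which blocks carboxypeptidase Y, at 1.602. Carboxypeptidase Y itself, PRC1, was at 0.097. The median over the 4 members in odd print blocks alone was -0.051. Of 36 autophagy genes 4 were higher, ATG8, which coats the growing membrane, at 1.56, ATG5 at 1.501, ATG7 at 1.19 and the vacuolar amino acid exporter ATG22 at 1.09, and 1, ATG41, was lower at -1.29. The regulatory particle of the proteasome had 17 of 19 subunits above 0 and 2, RPN8 at 1.11 and RPN13 at 1.09, past 2-fold, with a median of 0.69 (0.36 to 0.79) beside 0.58 and 0.59 on the earlier arrays. The core had a median of 0.24 (0.15 to 0.72) with 1 of 14, PRE1 at 1.26, past 2-fold, and the polyubiquitin gene UBI4 was at 1.76.

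Antioxidant genes went both ways, with 4 of 31 higher and 2 lower. The glutathione transferases GTT2 and GTT1 were at 1.29 and 1.05, TSA2 at 1.27 and the mitochondrial thioredoxin TRX3 at 1.11. CCP1 and the peroxidase GPX2 were at -1.60 and -1.29. In the pentose phosphate pathway, which makes NADPH, NQM1 and glucose-6-phosphate dehydrogenase ZWF1 were higher, the second at 1.27, and TKL1 was just short of 2-fold lower. In the response to DNA damage 3 of 14 genes were higher. HUG1, a small inhibitor of ribonucleotide reductase, had 1582 at the 11th generation, against 51.5 at the 1st, a log2 ratio of 2.55, against 0.42 and 0.76 on the 4th and 7th generation arrays. RNR3, the damage-induced large subunit of that enzyme, was at 1.65, and the third higher gene was RNR4. RNR1, the usual large subunit, was at -0.78, against 0.94 and 0.67 on the earlier arrays.

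Transcripts of nucleotide synthesis and uptake genes were mostly low. Of 16 purine genes 6 were at least 2-fold lower, 0 higher and 15 below 0, with a median of -0.71 (-1.35 to -0.65) beside -0.62 and -0.53 on the earlier arrays. ADE1 had raw signals of 1320.4 at the 11th against 1367 at the 1st and a log2 ratio of -2.12, with a 1st generation signal that differed 2.37-fold between arrays. ADE17, ADE57, ADE6, ADE2 and MTD1 lay between -1.41 and -1.05. Of 11 pyrimidine genes 5 were lower, with a median of -0.94 (-1.53 to -0.81). FUI1, the uridine importer, had raw signals of 413 at the 11th against 455 at the 1st and was 4.80-fold lower, and URA1, URA4, URA2 and URA5 of the synthesis pathway lay between -1.30 and -1.01. The glycine cleavage system and folate enzymes, which supply one-carbon units for purines, had 5 of 14 lower, with GCV2 at -2.04 (raw signals of 886 at the 11th against 976 at the 1st), SHM1 at -1.61, GCV3 at -1.23, SHM2 at -1.05 and MIS1 at -1.02. GCV2, GCV3 and SHM2 were lower still on the 4th generation array, at -2.64, -1.90 and -1.41, whereas MIS1 was at -0.22.

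Of 11 genes of branched-chain amino acid synthesis 4 were lower and 0 higher, with a median of -0.65 (-1.43 to -0.40) beside -0.38 and -0.14 on the earlier arrays. ILV3, dihydroxyacid dehydratase, had 1967 at the 11th generation, against 7470.02 at the 1st, 7.01-fold lower. LEU1, isopropylmalate isomerase, had raw signals of 594 at the 11th against 1072 at the 1st and was 4.76-fold lower. The acetolactate synthase ILV2 and BAT1 were at -1.46 and -1.43, and the regulatory subunit ILV6 at 0.075. In histidine synthesis 2 of 6 were lower, HIS4 at -2.03 and HIS7 at -1.11. The aromatic pathway had 0 higher and 0 lower of 16, and its transaminase and decarboxylase genes ARO9 and ARO10 were at -0.91 and -0.10, against 0.71 and 2.14 on the 4th generation array. In lysine synthesis all 7 were inside 2-fold. In arginine metabolism ARG7 was higher at 1.11 and the catabolic CAR2 lower at -1.71. PUT1, the first enzyme of proline use, had raw signals of 189 at the 11th against 29.4 at the 1st, the second not above the blanks, so it was at least 1.95-fold higher.

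All 11 sulfate assimilation genes were above 0, and 2, MET16 at 1.79 and MET14 at 1.41, were higher. SAM2, which makes S-adenosylmethionine, was at 1.90 (raw signals of 6202 at the 11th against 808 at the 1st), MET28 at 1.09 and the methionine permease MUP3 at 1.07. In nitrogen use 3 of 25 were higher, the GABA transaminase UGA1 at 1.51 and the glutamate dehydrogenases GDH3 and GDH2 at 1.45 and 1.14, and 1, GLT1 (raw signals of 462 at the 11th against 313 at the 1st), was lower. Of 19 amino acid permeases 3 were higher, the dicarboxylic amino acid permease DIP5 (raw signals of 5055 at the 11th against 243 at the 1st) at 2.44, the general permease GAP1 at 1.66 and MUP3, and 1, the histidine permease HIP1, was lower at -1.34. Among vitamins, SNZ1 of pyridoxine synthesis had 2281 at the 11th generation, against 62.0 at the 1st, a log2 ratio of 2.79, against 0.20 and 0.58 on the earlier arrays. Its partner SNO1 was at least 2.21-fold higher, with 28.4 at the 1st generation not above the blanks. The thiamine gene THI4 was at 1.63, and PHO3, an acid phosphatase that releases thiamine, at -2.50 (raw signals of 909.6 at the 11th against 2152 at the 1st). In NAD synthesis 1 of 13, the tryptophan dioxygenase BNA2, was higher at 2.12, with the nicotinamidase PNC1 at 0.73.

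Of 18 phosphate genes 2 were higher and 5 lower. PHO5, the secreted acid phosphatase, had 819 at the 11th generation, against 853 at the 1st, 4.73-fold lower. The polyphosphate synthesis genes VTC4, VTC3 and VTC2 were at -2.17, -1.49 and -1.31, and VTC1 at -0.87, but the 1st generation signals of VTC4 and VTC3 differed 2.48-fold and 3.00-fold between arrays. VTC4, HAS1, FRE7 and UTR4, all of whose 1st generation signals differed over 2-fold between arrays, lie in the same print block, block 2. PHM6 was at -1.11. In the other direction, the sodium-phosphate symporter PHO89 had raw signals of 6584 at the 11th against 820.4 at the 1st and a log2 ratio of 1.70, and the phosphatase PHM8 was at 1.53. The main importer PHO84 was at -0.49.

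All 13 phospholipid genes were above 0 and 4 were higher: the phosphatidylcholine enzyme OPI3 (raw signals of 8963 at the 11th against 960.1 at the 1st) at 2.30, the phosphatidylserine synthase CHO1 (raw signals of 12440.1 at the 11th against 1534 at the 1st) at 2.14, the inositol importer ITR1 at 1.23 and the activator INO2 at 1.12. On the 4th generation array the same 4 genes were at 2.31, 1.92, 1.91 and 0.83. Among sphingolipid genes YSR3, a phosphatase of sphingoid bases, had raw signals of 1698 at the 11th against 116 at the 1st and a log2 ratio of 2.02, against 0.082 and 0.40 on the earlier arrays. SUR1, LCB5 and ORM2 were at 1.30, 1.15 and 1.01, and ORM1, which like ORM2 restrains sphingolipid synthesis, at -1.28. In fatty acid synthesis OLE1 was higher and FAA3 lower, at -1.52. In beta-oxidation 1 of 11, SPS19, was higher at 1.30, and of 29 peroxins 0 passed 2-fold in either direction. At the plasma membrane FHN1 and PUN1 of the eisosome compartment were at 3.73 and 3.04, PUN1 with raw signals of 7461 at the 11th against 237 at the 1st and log2 ratios of 0.49 and 0.22 on the earlier arrays, while SUR7 was at -1.74. PMA1, the proton pump of the plasma membrane, had raw signals of 1087 at the 11th against 654 at the 1st and a log2 ratio of -1.28, against -0.28 and -0.15 on the earlier arrays, and 0 of the vacuolar pump subunits passed 2-fold, from VMA2 at -0.58 to VMA16 at 0.51.

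Among the 16 measured genes listed for cell wall integrity, the wall protein HSP150 and the wall protease YPS1 were higher, at 2.02 and 1.71, against 2.01 and 1.56 on the 4th generation array. PIR1 was lower at -1.19, and 13 of the 16 were above 0. GSC2, the glucan synthase subunit of stress and sporulation, was at 1.59 and its vegetative partner FKS1 at -0.23. Chitin deacetylase CDA1 and chitin synthase CHS1 were at 1.40 and 1.19, and CHS7, which exports a chitin synthase from the endoplasmic reticulum, at -1.16. Of 12 calcium genes 2 were higher, the calmodulin-dependent kinase CMK2 (raw signals of 9112 at the 11th against 472 at the 1st) at 2.67 and the calcineurin regulator RCN2 at 1.66. The median over the 5 members in odd print blocks alone was -0.028.

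**Figure D5:**
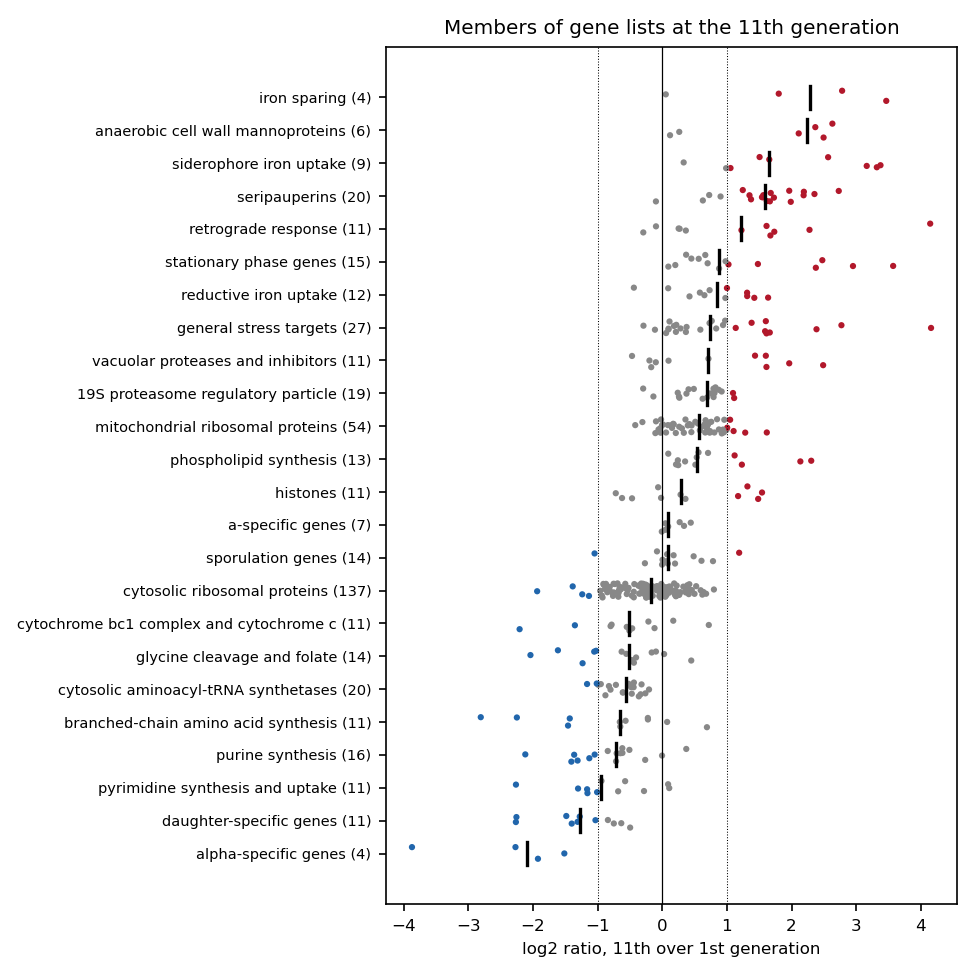
Each point is a measured member of a gene list, with the number of members in brackets, and the x axis gives the log2 ratio of 11th over 1st generation. The lists drawn are a selection of the 92, and most lists with a median within 0.3 of 0 are left out. Red points are at least 2-fold higher, blue points at least 2-fold lower, bars are list medians and dotted lines mark 2-fold. Medians run from 2.29 for iron sparing and 2.24 for anaerobic wall mannoproteins to -2.10 for alpha-specific genes.

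Cell cycle genes were mostly below 0. Of 11 genes of the G1 to S transition 2 were lower, the cyclins CLN2 at -1.77 and PCL2 at -1.38, and 10 were below 0. Among mitotic genes CLB1 was higher at 1.62 (raw signals of 3408 at the 11th against 269 at the 1st) and the activator NDD1 lower at -1.23, with CLB2 at -0.24. In DNA replication 4 of 24 genes were lower, the polymerase genes POL1, POL12 and POL2 at -1.61, -1.34 and -1.08 and the clamp POL30 at -1.04, with a median of -0.48 (-0.60 to -0.30). The H2A and H2B genes differed by locus, while the H3 and H4 genes did not split that way. HTA1 and HTB1, which share a promoter, had raw signals of 5790.3 at the 11th against 1059.97 at the 1st and raw signals of 10958 at the 11th against 2839.7 at the 1st, with log2 ratios of 1.48 and 1.17, whereas the second pair HTA2 and HTB2 was at -0.62 and -0.72. The H3 genes HHT1 and HHT2 were at 1.54 and 1.32 and the H4 genes HHF1 and HHF2 at 0.28 and 0.36. HHT2 read -0.046 in the authors' deposited table, and the copies of each histone are similar enough that a probe may not separate them. The silencing factors had 11 of 12 below 0 and 0 past 2-fold, with SIR2 at -0.51 and the nucleolar anchor NET1 at -0.87. In the nuclear pore 23 of 29 were below 0 and 0 past 2-fold, with NUP53 at -0.98.

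Of the signalling genes listed for lifespan, TOR, Sch9 and protein kinase A with their regulators, 0 of 19 passed 2-fold in either direction, from RAS1 at -0.85 to LST8 at 0.75, and SCH9 was at 0.003. Among glucose sensing genes 1 of 12, the phosphatase GLC7, was higher at 1.33. Among drug exporters SNQ2 was lower at -1.41, and the polyamine exporter TPO4, at 1.83 and 1.59 on the 4th and 7th generation arrays, was at -0.11. Galactose genes lay between -0.24 and 0.30, and 1 of 7 aryl-alcohol dehydrogenases, AAD6, was higher at 1.15.

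Features outside every list held further large ratios, and the ones named here were picked by size, or as neighbours of these, after their values had been seen. Higher were YHR138C at 2.93 (raw signals of 3269 at the 11th against 77.4 at the 1st), PBI1 at 2.93, DIA1 at 2.86, HES1, an oxysterol-binding protein, at 2.80, the wall protein NCW2 at 2.74, the vacuolar mannosidase AMS1 at 2.31 and the mitochondrial aldehyde dehydrogenase ALD4 at 2.24. The log2 ratio of SPO24 was at least 2.24, since its 11th generation signal was at the scanner maximum. YOL162W, YOL163W and BDS1, neighbours within the 6 genes nearest 1 end of chromosome XV, were at 2.67, 2.01 and 1.30. Lower were the malic enzyme MAE1 at -2.05, the filamentous growth regulators NFG1 and TEC1 at -2.33 and -1.93, the wall protein SUN4 at -1.83 and the aldehyde dehydrogenase ALD5 at -1.76. YLR154W-F, YLR154W-B and YLR154W-E, small features annotated within the ribosomal DNA repeat, were at -1.99, -1.98 and -1.78. UTR4 was at -2.08, with a 1st generation signal that differed 3.17-fold between arrays. Over all features, 7 of the 328 higher and 15 of the 219 lower features had a 1st generation signal that differed at least 2-fold between arrays. Without a gene name were 37 of the higher and 14 of the lower.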

How the data were processed

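RNA of 11th generation (Cy3) and 1st generation cells (Cy5) was amplified as antisense RNA and hybridised together on a 3D-Gene yeast oligonucleotide array, per the labels' protocols. The raw intensity of each spot is as deposited, without background subtraction per the file headers. The deposited ratio of Cy3 over Cy5, and its log2 in the authors' table of values, came after background subtraction and global normalization per the file headers. Software was not given in the sources used here.

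Raw intensities were background-corrected with normexp (offset 50, all spots) and fitted by loess within each of 16 print blocks of 392 spots (span 0.3, 4 iterations, control spots at weight 0), with limma 3.58.1 in R 4.3.3. Python 3.11.15 made the summaries. Spots of ACT1 were averaged. A feature was measured if either raw signal passed the mean plus 2 SD of 320 blank spots, and called at 2-fold. Where 1 channel did not pass, the bound uses, for that channel, the higher of its own normalised signal and the lowest among features above the limit. The 1st generation signals of the 3 arrays were compared after division by each array's median. The procedure was tested on simulated data, where changes were read smaller than they were made and lower ones were shrunk more and recovered less often than higher ones. With 1 array no test was possible, and that number limits the precision.

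Named are the 15 highest and 15 lowest features, the deleted genes, ACT1 and the mating markers. The plan was to name all measured members of a list of 20 or fewer. Of a longer list it was up to 6 with the largest ratios. Many lists do not follow this plan, and only some of their members are named. Those and other names were chosen after values were seen. The lists were chosen with earlier results of these data known, and 3 of them and the isoenzyme pairs after these values were seen. Names and gene order came from RefSeq R64, where 5730 features matched and 62 did not. The authors' table of values was read for the same samples, and 0 columns of other samples were used. For 3 spots, and for some genes that the counts of lists and pairs include, nothing is reported here. Alternatives were 7 other corrections or normalizations, 3 filters and, for lists, odd or even blocks alone.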

Additional observations from a re-analysis of the deposited data

Results flagged for a closer look

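The lowest of the 8 ACT1 spots, with a log2 ratio of -1.54, lay apart from the other 7 by 0.619 of the whole range, above Dixon's limit of 0.526 for 8 values. These are spots of 1 array and not samples, and chance sets about 1 in 20 such groups apart. Of 60 spots with no probe, 3 were above the blank limit in at least 1 channel, as were 15 of 72 negative control spots, against 13 of the 320 blank spots that set the limit. The brightest spot with no probe read 197 in the 11th generation channel, and the brightest negative control spot 61.5.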

How the results depend on the processing

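The counts of higher and lower features were 328 and 219. They were 660 and 458 after plain subtraction of the blank mean, 567 and 398 with normexp at offset 0, 591 and 470 with median centring over the array, and 849 and 785 by the ratio in the authors' deposited table. Median centring within blocks gave 470 and 432. No background correction gave 402 and 274, and loess over the whole array 419 and 314, of which 258 and 156 were shared with the main counts. A signal above the limit in both channels left 326 and 219, and a limit of 3 SD or no filter 328 and 219. The cause of these shifts was not tested. Of 92 lists, 42 had a median of at least 0.3 in size, and 5 of these turned sign: copper handling (-0.34), vacuolar proteases (-0.051) and calcium genes (-0.028) over odd blocks alone, complex III and cytochrome c (0.11) over even blocks alone, and di-iron enzymes (-0.14) in the authors' deposited table. Over all lists and alternatives, 203 medians moved by more than 0.235, the SD of 7 ACT1 spots, without such a turn, 54 of them in the authors' table, and 620 moved by less. For the 30 highest and lowest features 107 values moved by more and 103 by less. The other 50 lists had a median within 0.3 of 0, and 30 of these differed in sign under another scaling, so no direction is given for such lists. Among the 547 called features, 7 differed in sign. No paired analysis was possible because there is 1 array, and no replicate could be left out. Promoter motifs were not run, since no promoter sequence was used here.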
